A study of Mus musculus with 3 samples.

Results

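Postn and Aspn matrix-producing cells were 108 of the 25263 cells that the 3 liver libraries held together, and all 108 lay in the control library. They were selected on measured values. A barcode was taken when it had at least 200 detected genes, at least 1 unique molecular identifier (UMI) of at least 2 of Postn, Aspn, Cthrc1, Ptn and Tnc, and UMIs of fewer than 2 of the mesothelial genes Upk3b, Msln, Nkain4, Lgals7 and Angptl7. Below, these cells are called members and the first 5 genes the rule genes. The levels of these 10 genes in members therefore describe the choice and are no finding.

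The study asked how matrix reaches a liver wound after irreversible electroporation (IRE), in which electric pulses kill cells in a confined area. Adult C57BL/6 livers were profiled by Drop-seq, in which a bead with a barcode labels the RNA of each cell inside a droplet. The control library came from livers with sham surgery, taken after 1 day, and the other libraries from livers 1 day and 7 days after electroporation (p.i., post injury), each with 8 pulses of 50 ms at 1 s intervals. The labels give 75 V, while the methods of the study give a lower voltage and name no sham surgery. Each library pooled the livers of its group, from a 4 mm punch of the electroporated area or of the same area in control livers. With 1 library per condition no test across animals was possible, and animals could not be told apart. All intervals below are 95% intervals and cover counting error only.

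Fibroblasts and myofibroblasts build the collagen scaffold of connective tissue. Procollagen chains are folded and hydroxylated in the endoplasmic reticulum, secreted, trimmed by proteases and crosslinked by lysyl oxidases, and small proteoglycans and glycoproteins set the spacing and the assembly of the fibrils. Periostin, encoded by Postn, and tenascin C, encoded by Tnc, are matricellular proteins that are scarce in most resting adult organs and abundant in development and around wounds. Asporin, encoded by Aspn, is a small leucine-rich proteoglycan that binds collagen. Cthrc1 encodes a secreted protein made by activated fibroblasts, and Ptn encodes pleiotrophin, a heparin-binding growth factor. In the liver, collagen-producing cells are known from the sinusoids (stellate cells), from the portal and vessel walls (portal and adventitial fibroblasts) and from the capsule.

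The control library held 10386 cells of at least 200 genes with a median of 595 UMIs, the library at 1 day p.i. 9253 cells with a median of 509 UMIs and the library at 7 days p.i. 5624 cells with a median of 456.5 UMIs. The labels estimate 1000 cells per library, so most of these barcodes exceed that estimate. Among the 1000 barcodes with most UMIs of each library, 50 were members in control and 0 in either injured library Members had a median of 1325 UMIs and 759 genes, against 593 UMIs in the other control cells. Mitochondrial transcripts took 11.0% of the UMIs of members and 20.7% of those of the other control cells. The control library shared 68 cell barcodes with the library at 1 day p.i. and 44 with that at 7 days p.i. None of these was a member, and the barcodes of any 2 members differed in at least 3 bases.

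Postn was found in 86 of the 108 members with 338 UMIs, Ptn in 64 with 362 UMIs, Aspn in 61 with 308 UMIs, Cthrc1 in 54 with 105 UMIs and Tnc in 45 with 106 UMIs. Per member, Postn ranged from 0 to 32 UMIs with a median of 2, Aspn from 0 to 36 with a median of 1, and Ptn from 0 to 38 with a median of 1. Tnc reached 11 UMIs and Cthrc1 8 UMIs in the member with most. Both Postn and Aspn were seen in 54 members, and Postn with Ptn in 48. Of the 53 members with exactly 2 rule genes, 15 passed by Postn and Aspn alone and 15 by Postn and Ptn alone. Postn was thus the rule gene seen in most members, and 27 members held both Aspn and Ptn. Upk3b was at 0 UMIs in members, and Msln, Nkain4, Lgals7 and Angptl7 had 1 to 6 UMIs each. Of the collagen genes, which the rule did not use, Col1a2 and Col3a1 were each found in 106 of the 108 members.

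Just inside the threshold stood 53 members with 2 rule genes, 23 had 3, 25 had 4 and 7 had all 5. Just outside it, 224 control cells had 1 rule gene, against 14 cells on day 1 and 4 on day 7 p.i. Of these control cells, 205 also met the limit on mesothelial genes, with a median of 772 UMIs. Fibrillar collagens took 1.60% of their UMIs, against 2.90% in members with 2 rule genes, 4.14% with 3, 4.59% with 4 and 5.30% with 5. The median depth rose in the same order among members, from 1066 UMIs with 2 rule genes to 2135 with 5, so depth and the number of rule genes moved together. In 60 of the 205 cells no UMI of Col1a1, Col1a2, Col3a1, Dcn or Sparc was found, which happened in 0 of the 108 members. The limit on mesothelial genes removed no cell with 2 or more rule genes.

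**Figure D1:**
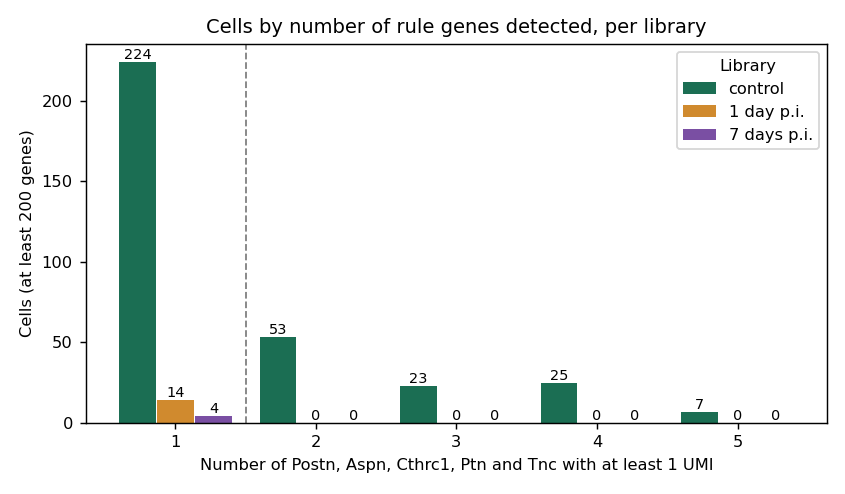
The x axis gives the number of rule genes with at least 1 UMI and the y axis the number of cells with at least 200 genes, in green for control, orange for 1 day p.i. and purple for 7 days p.i. Right of the dashed line lie the 108 members (53, 23, 25 and 7 cells), all in control, while the injured libraries reach 1 rule gene in 14 and 4 cells.

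Members were 1.04% of control cells (95% exact binomial interval, Clopper-Pearson, 0.854 to 1.25%). The interval does not cover the choice of gate and depth, since the share was 0.511% with each cell thinned to 300 UMIs, 0.530% with at least 3 rule genes, 1.58% without cells over 20% mitochondrial, 2.995% with at least 500 genes and 5.00% among the 1000 barcodes with most UMIs. In the library at 1 day p.i. they were 0 of 9253 cells, which allows a share of up to 0.0324% by a floor of 3 cells and of up to 0.0399% by the exact binomial interval. At 7 days p.i. they were 0 of 5624 cells, which allows up to 0.0533% and 0.0656% by the same limits. Set against the floor of 3 cells, the share was 32.1-fold higher in control than at 1 day p.i. and 19.5-fold higher than at 7 days p.i. These 2 ratios have no interval, and the exact binomial limits allow smaller differences. All 5 rule genes together had 1576 UMIs in the control library, against 15 on day 1 and 8 on day 7 p.i. Postn, Aspn and Cthrc1 had 4 UMIs each on day 1 and 0 on day 7 p.i. Tnc was the exception in its order, with 146 UMIs in control, 0 on day 1 and 7 UMIs in 3 cells on day 7 p.i. The libraries also differed in quality, with 20.5%, 21.8% and 4.10% mitochondrial UMIs in cells and 20.1%, 28.7% and 33.2% of UMIs outside cells in control, on day 1 and on day 7, and the part of this in the difference was not tested. Fewer cells of this kind in the tissue, fewer recovered from it by digestion and less of these transcripts per cell cannot be told apart in these data.

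Other mesenchymal cells were also scarcer in the injured libraries. Cells with at least 2 of the adventitial fibroblast genes Dpt, Mfap5, Clec3b, Pi16 and Entpd2, members left out, numbered 62 in control, 4 on day 1 and 0 on day 7 p.i. Cells with at least 2 of the mesothelial genes numbered 92, 5 and 0. Cells with at least 2 of the stellate cell genes Lrat, Reln, Colec11, Ecm1 and Hgf numbered 17, 11 and 2, and their share was 1.38-fold higher in control than at 1 day p.i. with an interval of 0.608 to 3.25 that includes 1. The gate for stellate cells was thus the exception at 1 day p.i., although 11 cells allow no precise share. In control, cholangiocyte genes took 0.4025% of the UMIs of the cells in this gate, against 0.0679% in all control cells that were not members. The cells of this gate can therefore not be taken as stellate cells alone.

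The difference between libraries was also seen without the rule genes. Cells in which fibrillar collagens took at least 2% of the UMIs, a threshold chosen after values had been seen, numbered 227 in control, 4 on day 1 and 0 on day 7 p.i. Of the 227 control cells 86 were members, 70 had 1 rule gene and 71 had none. Members were therefore fewer than the other collagen-rich cells of the control library. In the single cell with most, fibrillar collagens took 8.97% of UMIs in control, 5.12% on day 1 and 1.65% on day 7 p.i.

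When the members were left out, Col1a1, a chain of type I collagen, was still at 125 CPM (counts per 1000000 UMIs) in control cells and at 2.78 CPM at 1 day p.i., a ratio of 45.0 (27.9 to 77.5). Col1a2, the other chain of type I collagen, stood at 469 CPM without members, at 12.3 CPM on day 1 and at 3.27 CPM on day 7 p.i. Col3a1, which encodes type III collagen, stood at 414, 19.8 and 5.23 CPM. Sparc, a matricellular glycoprotein that endothelial cells also express, differed less, with 740 CPM in control without members against 455 CPM on day 1 and 81.1 CPM on day 7 p.i. Not all matrix genes differed in this direction. Without members, matrix glycoproteins took 0.301% of UMIs in control cells, 0.381% on day 1 and 0.808% on day 7 p.i., and the other collagens 0.0374%, 0.0429% and 0.00670%. Crosslinking genes took 0.0779%, 0.0786% and 0.147%. Small leucine-rich proteoglycans took 0.0527%, 0.0170% and 0.00108%. The lower level in both injured libraries thus held outside the members for fibrillar collagens and small leucine-rich proteoglycans. It did not hold for glycoproteins, other collagens and crosslinking genes as a whole. The glycoprotein list also holds Spp1, at 613 CPM in control cells without members, so its share cannot be assigned to mesenchymal cells alone.

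Members held 2.17% of the UMIs of control cells and a far larger part of several transcripts. Of the rule genes they held 86.8% of Cthrc1 and 86.0% of Aspn UMIs, which the rule itself favours. Among genes that the rule did not use, they held 83.3% of the UMIs of Grem1, a secreted inhibitor of bone morphogenetic proteins, with 15 UMIs in 8 members. They held 80.0% of Col11a1, a minor fibrillar collagen, 76.2% of Col8a1, a short-chain collagen, and 72.4% of Thbs2, a matricellular thrombospondin. By contrast, they held 45.5% of Col1a2, 29.2% of Sparc, 19.6% of Dcn and 5.59% of Vim UMIs. Most of the decorin and vimentin transcripts of the control library thus came from other cells.

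**Figure D2:**
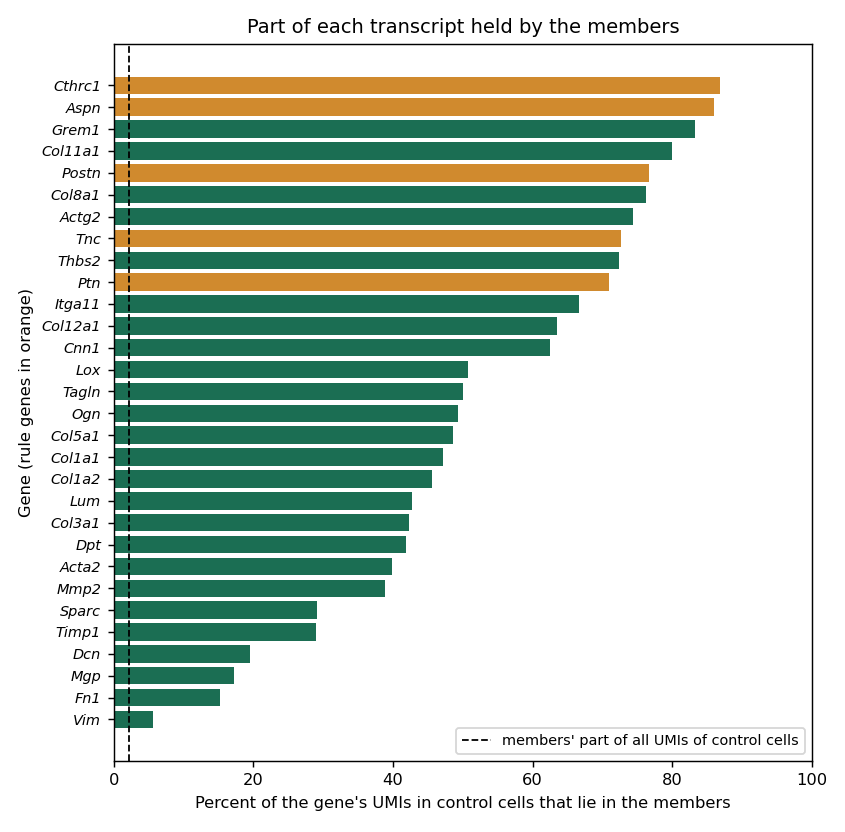
Bars give the percent of each gene's UMIs in control cells that lay in the 108 members, with rule genes in orange, and the dashed line marks the 2.17% of all UMIs that members held. Grem1 (83.3%), Col11a1 (80.0%) and Col8a1 (76.2%) reach the range of the rule genes, while Vim (5.59%) stands near the line.

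Over all 11631 genes with at least 20 UMIs in control cells, the 10 genes of the rule left out, 2069 genes (17.8%) were at least 2-fold higher in members than in the other control cells and 1593 (13.7%) at least 2-fold lower. This split was 56.5% higher among the called genes, and 45.3% higher when mitochondrial and hepatocyte transcripts were taken out of the totals, which multiplied every ratio by 0.879. The median ratio was 0.963. A single UMI among members could pass 2-fold for a gene near the minimum. Among the 1418 genes with at least 20 UMIs in members, a minimum chosen after values had been seen, 365 (25.7%) were higher and 83 (5.85%) lower. The counts given below for gene lists use the first of these rules and are to be read against 17.8% and 13.7%.

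Fibrillar collagens took 3.91% of the UMIs of members (3.82 to 4.00%) and 0.109% of those of the other control cells. All 9 tested genes of the list were at least 2-fold higher, with a median ratio of 37.6. Col1a2 gave 3070 UMIs in 106 members, from 0 to 173 UMIs per member with a median of 19. This was 17640 CPM against 469 CPM in the other cells, a ratio of 37.6 (35.9 to 39.5). Col3a1 gave 2371 UMIs in 106 members with a ratio of 32.9 (31.2 to 34.8), and Col1a1 gave 878 UMIs in 100 members with a ratio of 40.3 (36.8 to 44.2). The type V chains, which start and limit the width of type I fibrils, followed with ratios of 42.5 for Col5a1, 31.6 for Col5a2 and 39.8 for Col5a3. Col11a1 had 24 UMIs in 15 members and only 6 in all other control cells, a ratio of 180 (71.8 to 539).

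Free RNA accounts for some UMIs in any droplet. At an equal depth of 300 UMIs drawn from each cell (107 members were deep enough), Col1a2 was found in 93.5% of members and in 2.83% of 5402 control cells with at least 2 leukocyte markers, cells that should lack it. Before thinning, the median depth of these leukocyte-marked cells was 716 UMIs. Col3a1 was found in 90.7% against 2.499% and Dcn in 64.5% against 1.61%. Postn was found in 50.5% of members against 0.222%, which reflects the choice of members.

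Among the other collagens 13 of 14 tested genes were at least 2-fold higher in members, with a median ratio of 16.6, and the list took 0.494% of their UMIs against 0.0374%. Col6a1, Col6a3 and Col6a2, the chains of the microfibrillar type VI collagen, had 131, 101 and 67 UMIs and ratios of 18.6, 37.9 and 11.8. Col8a1 had 77 UMIs in 30 members and a ratio of 144.5 (90.4 to 239), and Col12a1, a collagen that lies along the surface of fibrils, had 47 UMIs in 32 members and a ratio of 78.4 (47.9 to 131). Col14a1, of the same class of fibril-associated collagens, had 113 UMIs and a ratio of 24.2. The basement membrane chains differed less, with ratios of 5.79 for Col4a1 and 4.72 for Col4a2. Col8a1 and Col12a1 were thus the collagens outside the fibrillar class that set members most apart.

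Of the small leucine-rich proteoglycans, which bind fibrils and growth factors, 6 of 7 tested genes were at least 2-fold higher, with a median ratio of 12.6. Lum, which encodes lumican, gave 209 UMIs in 69 members and a ratio of 33.5 (27.9 to 40.2), and Ogn, which encodes osteoglycin, 202 UMIs in 52 members and a ratio of 43.8 (35.9 to 53.4). Dcn gave the most UMIs of the list, 655 in 89 members, with a ratio of 10.9 (10.0 to 11.9) because it was also at 344 CPM in the other control cells. Bgn, which encodes biglycan, had a ratio of 12.6, and Fmod, which encodes fibromodulin, had 16 UMIs and a ratio of 30.0. Of the other proteoglycans 7 of 10 tested were higher and 2 lower, with a median ratio of 3.76. Vcan, the large proteoglycan versican, had 46 UMIs and a ratio of 6.46, whereas Srgn, the proteoglycan of leukocyte granules, had a ratio of 0.255.

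Of the matrix glycoproteins 37 of 42 tested genes were at least 2-fold higher and 1, Spp1, lower, with a median ratio of 11.3. Sparc gave 2390 UMIs in 105 members and a ratio of 18.6 (17.7 to 19.5). Fn1, which encodes fibronectin, gave 282 UMIs and a ratio of 8.09, and Mgp, an inhibitor of calcification, 311 UMIs and a ratio of 9.40. Components of elastic microfibrils were higher as well, with ratios of 24.5 for Fbn1, which encodes fibrillin, 38.3 for Mfap2 and 42.3 for Mfap4. Thbs2 had 55 UMIs in 24 members against 21 UMIs in all other control cells, a ratio of 118 (70.2 to 205). Spp1, which encodes osteopontin, stood at 121 CPM in members and at 613 CPM in the other cells, a ratio of 0.197.

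The machinery that folds, trims and crosslinks collagen was higher too. Of 21 tested genes 19 were at least 2-fold higher and 1 lower, with a median ratio of 16. Serpinh1, the collagen chaperone, had 286 UMIs in 77 members and a ratio of 22.4 (19.3 to 25.8). Lox, a lysyl oxidase, had 71 UMIs in 38 members and a ratio of 46.4 (32.8 to 65.5), and the related Loxl1 and Loxl2 had ratios of 24.2 and 26.2. Plod2, which hydroxylates lysines of the collagen telopeptides, had a ratio of 26.1. The lower gene was Tgm2, which encodes transglutaminase 2, with 7 UMIs and a ratio of 0.267.

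Of the matrix proteases and their inhibitors 19 of 24 tested genes were at least 2-fold higher and 1 lower, with a median ratio of 8.48. Mmp14, a membrane-bound collagenase, gave 280 UMIs in 86 members and a ratio of 12.9, and Mmp2, a gelatinase that it activates, 136 UMIs and a ratio of 28.6. Among the inhibitors Timp1 had 82 UMIs and a ratio of 18.4, Timp2 104 UMIs and a ratio of 3.65, and Timp3 52 UMIs and a ratio of 1.68. Serpine2, a protease inhibitor also known as nexin 1, had 64 UMIs in 31 members and a ratio of 51.5 (35.4 to 75.1). Transcripts of matrix breakdown and of its inhibitors were therefore both raised in members relative to the other cells.

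Contractile genes took 1.27% of the UMIs of members (1.22 to 1.33%) and 0.207% of those of the other control cells, and 16 of 19 tested genes were at least 2-fold higher, with a median ratio of 14.5. Acta2, the smooth muscle actin by which myofibroblasts are defined, was found in 45 of the 108 members with 198 UMIs, from 0 to 43 UMIs per member. Its ratio was 29.9 (24.9 to 35.9). Tagln, which encodes transgelin, had 108 UMIs in 35 members and a ratio of 45.1, Tpm2, a tropomyosin, 217 UMIs in 55 members and a ratio of 28.3, and Cald1, which encodes caldesmon, 478 UMIs in 87 members and a ratio of 14.5. No Acta2 UMI was found in 63 members, and 26 members held both Acta2 and Tagln.

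A single member weighed heavily on the contractile list. It held 493 of the 2214 contractile UMIs (22.3%), 58 of the 67 UMIs of Myh11, the smooth muscle myosin, and 43 of the 58 UMIs of Actg2, the enteric smooth muscle actin. Contractile genes took 20.5% of its UMIs, while the median over members was 0.771% and 3 members had none. Without the member with most contractile UMIs the list took 1.00% of the UMIs of members. Without its highest member, Acta2 stood at 903 CPM, in place of 1138 CPM. Myh11 was in 5 members in all and Rgs5, a pericyte gene, in 7, with 26 of its 46 UMIs in 1 member. The ratios of Myh11, Actg2 and Rgs5 thus describe a few cells. Over the members with at least 3 rule genes they were 1.82, 40.55 and 3.47, in place of 14.9, 131 and 6.496.

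**Figure D3:**
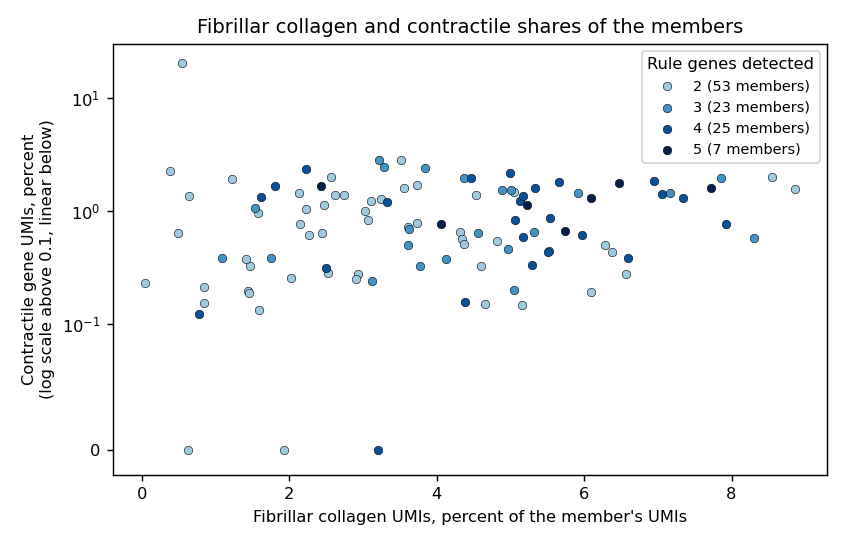
Each of the 108 points is a member, with the percent of its UMIs from fibrillar collagens on the x axis and from contractile genes on the y axis (log scale above 0.1, linear below), coloured by the number of rule genes detected. Members span 0.0457 to 8.86% fibrillar collagen, and the single member with 20.5% contractile UMIs stands at the top left.

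For comparison, groups of cells with overlapping gene programs were set beside the members. Of the members, 37 also met the adventitial gate, 5 the stellate gate and 0 the mesothelial gate, and these stayed with the members. The genes of each gate were used to choose its cells and are given as description only. Fibrillar collagens took 2.98% of UMIs in the 62 adventitial-gate cells, 1.00% in the 92 mesothelial-gate cells and 0.836% in the 17 stellate-gate cells, against 3.91% in members. Their median depths were 945, 1170 and 1047 UMIs.

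Members stood above adventitial-gate cells in contractile genes, which took 1.27% and 0.369% of their UMIs. Acta2 was at 1138 CPM in members and at 89.3 CPM in adventitial-gate cells, a ratio of 12.7 (5.75 to 35.1), and Tpm2 had a ratio of 9.31 (4.81 to 20.6). Col8a1 had 77 UMIs in members and 1 in adventitial-gate cells, and Serpine2 64 and 3 UMIs, a ratio of 8.24 (2.69 to 40.98). Thbs2 was at 0 in adventitial-gate cells and 7.08-fold higher in members when set against a floor of 3 UMIs over that gate. Col12a1 had a ratio of 6.05 (1.95 to 30.4), and Col1a1 one of 1.83 (1.56 to 2.16). Col3a1 did not differ beyond counting error, with a ratio of 0.945 (0.876 to 1.02), and neither did Ogn and Sfrp1, with ratios of 1.15 (0.867 to 1.53) and 1.15 (0.814 to 1.65). Crosslinking genes took 0.610% of UMIs in members (0.574 to 0.647%) and 0.546% in adventitial-gate cells (0.492 to 0.605%), with intervals that overlap.

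Other transcripts were lower in members than in adventitial-gate cells. Matrix glycoproteins took 2.74% of UMIs in members and 3.28% in adventitial-gate cells, small leucine-rich proteoglycans 0.754% and 1.56%, and proteases with their inhibitors 0.664% and 0.798%. Dcn stood at 3763 CPM in members and at 11020 CPM in adventitial-gate cells, a ratio of 0.342 (0.307 to 0.380). C3, a complement component, had a ratio of 0.0879 (0.0635 to 0.120), Igfbp5, a binding protein of insulin-like growth factors, one of 0.0813 (0.0328 to 0.177), and Gsn, which encodes gelsolin, one of 0.168 (0.126 to 0.222). Within the genes that chose the adventitial gate, Dpt, which encodes dermatopontin, was at 1494 CPM in members and at 3037 CPM there, while Clec3b and Pi16 stood at 109 and 86.2 CPM in members. Dpt was found in 64 members and Pi16 in 7.

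**Figure D4:**
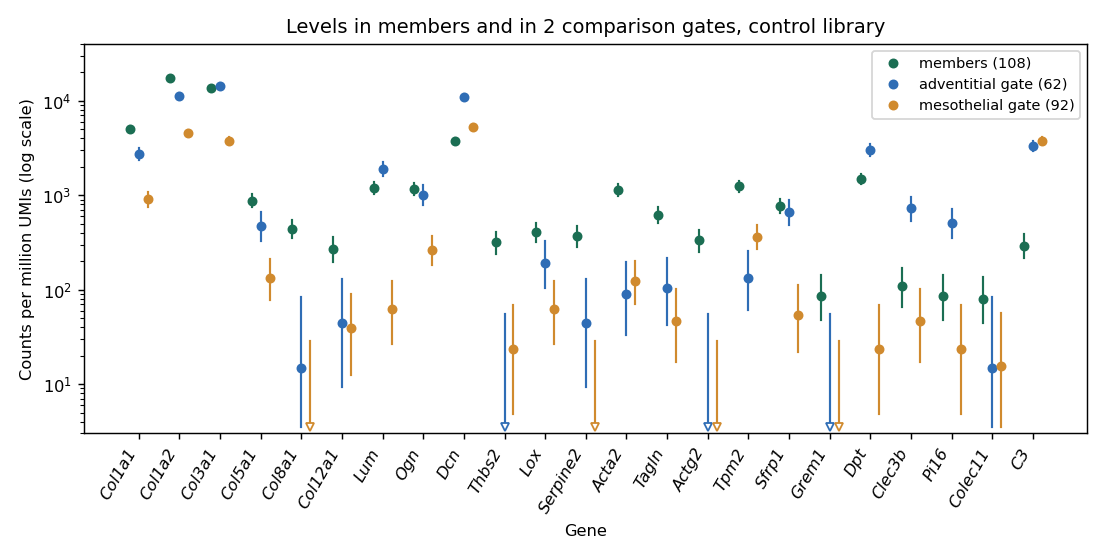
The y axis (log scale) gives the CPM of 23 genes in the members, the adventitial-gate cells and the mesothelial-gate cells of the control library, with 95% Poisson intervals, and open triangles mark 0 UMIs. Acta2, Actg2, Col8a1 and Thbs2 stand higher in members than in both gates, and C3 stands lower, at 293 CPM.

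Against mesothelial-gate cells, members were higher in Col1a1 with a ratio of 5.55 (4.57 to 6.79), in Lum with 19.3 (9.63 to 45.4) and in Prrx1, a transcription factor of limb and connective tissue mesenchyme, with 24.4 (4.09 to 993). They were lower in C3 and Igfbp5, with ratios of 0.0775 and 0.0403. Transcription factors known from mesothelium and septum transversum were present in both, since Wt1 had 19 UMIs in 13 members with a ratio to mesothelial-gate cells of 0.639 (0.327 to 1.24), and Gata6 36 UMIs in 27 members with a ratio of 0.592 (0.371 to 0.938). Against the other control cells as a whole, Wt1 and Gata6 were higher in members, with ratios of 11.3 (6.43 to 18.8) and 10.3 (6.98 to 14.9). Of the further mesothelial genes 1 of 10 tested was at least 2-fold higher, which was Wt1, and 3 were lower, with a median ratio of 0.157.

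Stellate cell genes took 0.198% of the UMIs of members, 0.440% of those of stellate-gate cells and 0.0255% of those of the other control cells, and 9 of 13 tested genes were at least 2-fold higher in members than in the other cells, with a median ratio of 3.56. Among them was Cygb, which encodes cytoglobin and which other mesenchymal cells share, with 49 UMIs in 32 members and a ratio of 18.9. Genes more particular to stellate cells were scarce, since Lrat, which esterifies retinol for storage, had 3 UMIs, Hgf 2 UMIs and Reln 0 UMIs. Colec11 had 14 UMIs in 9 members and was 12.6-fold higher than in the other control cells (6.44 to 23.2). Adventitial fibroblast genes took 0.342% of the UMIs of members, and 10 of 12 tested genes were higher than in the other control cells, with a median ratio of 6.10. Pi16 was 6.56-fold higher (3.54 to 11.3) over all members, but 0.716-fold as high as in the other cells over the members with at least 3 rule genes. The latter value rests on a count of Pi16 below the floor of 3 UMIs.

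**Figure D5:**
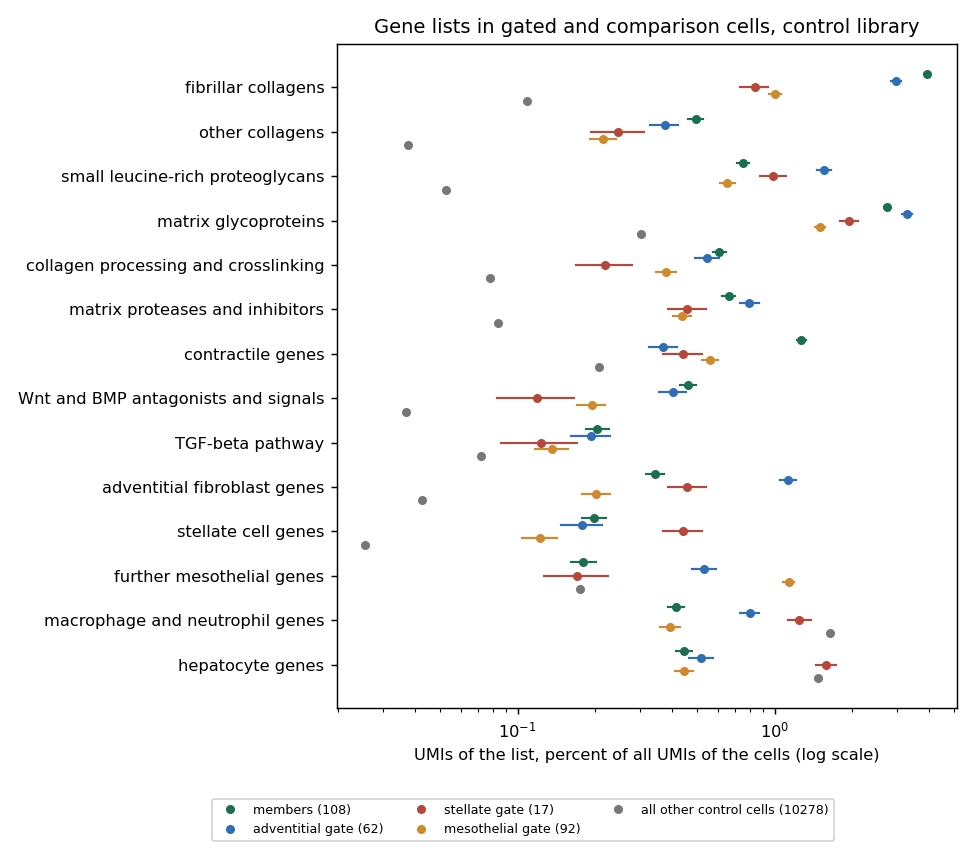
For 14 gene lists the x axis (log scale) gives the percent of UMIs in the members, in 3 comparison gates and in all other control cells, with 95% exact binomial intervals for the first 4 groups. Members lie highest for fibrillar collagens (3.91%), other collagens and contractile genes (1.27%), with 22.3% of the contractile UMIs in 1 member. They also lie highest for crosslinking, Wnt and BMP, and TGF-beta genes, with intervals that overlap those of adventitial-gate cells. Adventitial-gate cells lie highest for small leucine-rich proteoglycans, matrix glycoproteins, proteases with their inhibitors and adventitial genes.

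Of the mesenchymal surface and identity genes 15 of 21 tested were at least 2-fold higher and 0 lower, with a median ratio of 2.998. Their share of UMIs was 0.761% in members, 0.765% in adventitial-gate and 0.761% in mesothelial-gate cells, so the list did not set members apart from these. Itga11, a collagen-binding integrin chain, had 10 UMIs in 9 members and a ratio of 90.1 (28.1 to 336). Tbx20, a T-box transcription factor known from the heart, had 8 UMIs and a ratio of 51.5 (16.3 to 167), and Prrx1 33 UMIs and a ratio of 24.8. The receptors by which fibroblasts are often sorted were thin, with 13 UMIs of Pdgfra in 11 members and 9 UMIs of Pdgfrb in 8. Their absence from most members was therefore not informative at this depth. Vim, which leukocytes also express, had 391 UMIs in 89 members and a ratio of 2.67.

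In the TGF-beta pathway 15 of 26 tested genes were at least 2-fold higher and 0 lower, with a median ratio of 2.08. The list took 0.2045% of the UMIs of members and 0.1935% in adventitial-gate cells, with intervals that overlap. Among the ligands Tgfb3 had 37 UMIs in 23 members and a ratio of 24.5 (15.96 to 37.1), and Tgfb2 14 UMIs and a ratio of 11.5 (5.89 to 20.9). Tgfb1, the ligand that leukocytes also make, had 7 UMIs and a ratio of 0.964 (0.385 to 2.01). Ltbp2, which shares its family with the proteins that store latent ligand in the matrix, had a ratio of 32.1, and Ltbp3, which does store it, one of 10.7. The receptor Tgfbr2 had a ratio of 2.09 (1.16 to 3.502). Among target genes Pmepa1 had 38 UMIs and a ratio of 12.4, and Ctgf 24 UMIs in 11 members and a ratio of 4.91. Inhba, which encodes the activin A chain, had 11 UMIs and a ratio of 13.4.

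Of the Wnt and BMP antagonists and signals 9 of 13 tested genes were at least 2-fold higher and 1 lower, with a median ratio of 6.76. The list took 0.460% of the UMIs of members and 0.402% in adventitial-gate cells, with intervals that overlap. Fstl1, a secreted follistatin-like protein, led with 500 UMIs in 93 members, from 0 to 25 per member with a median of 4, and a ratio of 31.9 (28.4 to 35.8). Sfrp1 and Sfrp2, which bind Wnt ligands outside the cell, had 134 and 31 UMIs and ratios of 40.5 and 25.9. Dkk3, of the dickkopf family, had 46 UMIs and a ratio of 40.6. Grem1 had 15 UMIs in 8 members against 3 in all other control cells, a ratio of 225 (63.7 to 1214). Wnt4 had 25 UMIs in 17 members and a ratio of 14.6.

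Of the growth factors and cytokines 17 of 26 tested genes were at least 2-fold higher and 1, Grn, lower, with a median ratio of 2.83. These genes took 0.406% of the UMIs of members, but 0.5805% in adventitial-gate and 0.4675% in mesothelial-gate cells. Cxcl12, a chemokine of stromal cells, had 84 UMIs in 30 members and a ratio of 29.1 (21.9 to 38.6). Mdk, which encodes midkine and is the only close relative of pleiotrophin, had 58 UMIs in 33 members and a ratio of 21.6 (15.5 to 29.8). Igf1 had 123 UMIs in 46 members and a ratio of 2.60. The inflammatory chemokines Ccl2 and Cxcl2 had 12 and 8 UMIs, and their ratios of 1.49 (0.760 to 2.63) and 0.789 (0.338 to 1.57) were not distinguishable from 1. Of the bone, tendon and cartilage genes 4 of 5 tested were higher, with a median ratio of 9.40, among them Cilp with 31 UMIs and a ratio of 28.5. Most UMIs of these genes came from Mgp, already counted with the glycoproteins, whose ratio was also the median. Fmod was likewise already counted, with the small leucine-rich proteoglycans. This list took 0.214% of the UMIs of members, against 0.515% in adventitial-gate and 0.245% in mesothelial-gate cells.

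Secretory genes showed a smaller difference, with 1.12% of UMIs in members and 0.722% in the other control cells. Here 7 of 23 tested genes were at least 2-fold higher and 1 lower, with a median ratio of 1.74. The general chaperone Hspa5 had a ratio of 1.34 (1.19 to 1.502). Rcn3 and Kdelr3, which serve the early secretory pathway, had ratios of 14.6 and 24.2. Of the cell division genes 1 of 20 tested was higher and 6 lower, with a median ratio of 0.756, and Mki67 and Top2a were each found in 11 members, 5 of which held both. The 5 members with most Mki67 held 32 of its 38 UMIs. Its ratio was 0.821 (0.580 to 1.13) over all members. Without members with at least 2 leukocyte markers it was 0.442, and with at least 3 rule genes 0.389. Low-oxygen and glycolysis genes stood near the other cells with a median ratio of 0.968, 0 of 15 higher and 2 lower. Immediate early genes, which digestion of tissue can induce, took 0.184% of UMIs against 0.162%, with 2 of 15 higher and 3 lower, while they took 0.396% in adventitial-gate cells and 0.337% in mesothelial-gate cells. Interferon and MHC class I genes were lower, with 8 of 15 tested genes at least 2-fold lower and 1 higher, and B2m, the light chain of MHC class I, had a ratio of 0.408 (0.360 to 0.460).

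Marker lists of leukocytes, hepatocytes, endothelial cells, cholangiocytes and erythroid cells were lower in members than in the other control cells, but not at 0. At least 2 of the leukocyte markers Ptprc, Laptm5, Tyrobp, Fcer1g and Coro1a were found in 27 members (25%) and in 53.2% of the other control cells. All 5 leukocyte markers, 12 of 13 macrophage and neutrophil genes, 7 of 9 lymphocyte genes, 20 of 26 hepatocyte genes, 10 of 12 endothelial genes, 2 of 7 cholangiocyte genes and 1 of 4 erythroid genes were at least 2-fold lower, and 0 of these were higher. Ptprc, the pan-leukocyte phosphatase, had 15 UMIs in 11 members and a ratio of 0.128, and Lyz2, the lysozyme of myeloid cells, 252 UMIs in 61 members and a ratio of 0.255. Alb, the albumin gene of hepatocytes, had 18 UMIs and a ratio of 0.191. H2-Aa, H2-Eb1 and Cd74, which encode parts of MHC class II, were among the genes with the lowest ratios in members, 0.160, 0.174 and 0.206. Krt7 and Krt19, the keratins of bile ducts, and Vwf of large vessels were at 0 UMIs. The glia genes had 3 UMIs in all, with 0 of 5 genes tested. Their summed ratio to the other control cells was 11.3 (2.04 to 41.7), which rests on these 3 UMIs.

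Without the 27 members with leukocyte markers the ratio was 0.0291 for Ptprc, 0.109 for Lyz2, 0.0802 for Cd74, 0.0816 for H2-Eb1 and 0.112 for H2-Aa and Spp1, in each case lower than over all members. The ratio of Ctgf was 7.68 and that of Myh11 24.6 without them, both higher than over all members. Of the 67 Myh11 UMIs, 58 lay in 1 member without leukocyte markers, so the higher Myh11 ratio describes mainly that cell. Ptprc is among the markers by which these 27 members were left out, so its lower ratio was set by that choice and is no finding. The lower ratios of the other genes describe the same removal only.

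The 27 members with leukocyte markers were deeper, with a median of 2250 UMIs against 1027 in the other 81. They held 0.680% macrophage and neutrophil UMIs against 0.227%, and 0.938% contractile UMIs against 1.51%, while fibrillar collagens differed little, at 3.73% against 4.03%. Without these 27 the members were 0.780% of control cells. The part that droplets with more than 1 cell or free RNA have in these values was not tested.

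Outside the rule genes, the 15 genes with the largest ratios among those with at least 20 UMIs in members were Col11a1, Col8a1, Actg2, Thbs2, Col12a1, Cnn1, Islr, Pdgfrl, Serpine2, Lox, Tagln, Ogn, H19, Col5a1 and Mfap4, with ratios from 180 down to 42.3. Islr, also known as meflin, had 27 UMIs in 20 members and a ratio of 55.3 (30.3 to 102). Pdgfrl, a secreted receptor-like protein, had 22 UMIs and a ratio of 52.2. H19, an imprinted noncoding RNA that is abundant in fetal tissue, had 122 UMIs in 25 members and a ratio of 43.6 (33.7 to 56.4). Of these 15, 5 were collagen or crosslinking genes of the fixed lists (Col11a1, Col8a1, Col12a1, Col5a1 and Lox) and 3 contractile genes. The share of such genes among all 1418 ranked genes was not counted, so these counts are a description only. Among the contractile genes, Cnn1 was found in 10 members and Actg2 in 13, with 43 of its 58 UMIs in 1 member.

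Members varied among themselves. Fibrillar collagen ranged from 0.0457 to 8.86% of a member's UMIs with a median of 3.76%, small leucine-rich proteoglycans from 0 to 4.01% with a median of 0.733%, and adventitial fibroblast genes from 0 to 3.16%, with 29 members at 0. Across the 108 members the shares of adventitial genes and of small leucine-rich proteoglycans rose together (Spearman's rho 0.671, Pearson's r 0.411), and those of contractile and adventitial genes were weakly opposed (rho -0.333, r -0.149). Fibrillar collagen and crosslinking genes had a rho of 0.453 and an r of 0.464. All these cells came from the same library and each pair of shares has the same denominator, so the values only describe the members. Dpt and Ogn were found together in 44 members, Dpt alone in 20, Ogn alone in 8 and neither in 36. Dpt and Acta2 were found together in 26 members, Acta2 alone in 19, Dpt alone in 38 and neither in 25, so the transcripts were not exclusive of each other.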

How the data were processed

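Cells of digested mouse liver were profiled by Drop-seq in 3 libraries, 1 per condition, each pooled from several livers. The authors deposited UMI counts per gene and barcode without normalization. According to the file headers these counts come from sense reads over coding and untranslated bases with a mapping quality of at least 10 and UMIs merged within 1 base. The submitters' processing notes name STAR 2.5.2a and the build hg19, although the gene symbols are those of mouse, so no coordinates or sequences are printed. The headers name a minimum of 200 genes per barcode, which was applied here because the files hold barcodes below it.

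Groups came from the labels. The members, the gene lists and their genes were chosen with earlier results of these data known. Doublets were kept and no caller was run. UMIs were summed over cells and given as counts per 1000000 UMIs (CPM) or as a percent of UMIs, with 95% exact Poisson intervals, exact binomial (Clopper-Pearson) intervals and conditional binomial intervals for ratios (Python 3.11.15, scipy 1.17.1, numpy 2.4.6). They cover counting error only. No test was made, since each condition has 1 library and cells are not replicates. A gene was compared when it had at least 20 UMIs in control cells, and called at 2-fold. A bound against a count of 0 used a floor of 3 UMIs, and ratios of 2 counts that both stood at 3 or less were left out. Thinning drew 300 UMIs per cell with seed 1. Alternatives to the gate, the depth minimum and the scaling were run, 2 of them added after the data had been seen. The steps were tested on simulated counts. The genes named were the rule genes, up to 6 genes with most UMIs in members per list and the 15 genes with the largest ratio, and some of these are not reported here. Others were chosen after their values were seen, namely Ccl2, Col4a2, Ctgf, Cxcl2, Entpd2, Fbn1, H2-Aa, H2-Eb1, Hgf, Igfbp5, Inhba, Itga11, Kdelr3, Lrat, Mfap2, Myh11, Pdgfra, Pdgfrb, Pi16, Plod2, Prrx1, Reln, Tbx20, Tgfb1, Tgfb2, Tgfbr2, Tgm2, Timp3 and Vwf. Every barcode at or above the minimum was kept, and an alternative took the 1000 with most UMIs per library.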

Additional observations from a re-analysis of the deposited data

Results flagged for a closer look

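Among barcodes with fewer than 200 genes, which no comparison used, 5 in control had at least 2 rule genes, against 0 on day 1 and 0 on day 7 p.i. These 5 barcodes had a median of 182 genes, just under the minimum, and 71 control barcodes below it had 1 or more rule genes, against 9 and 2.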

How the results depend on the processing

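The library at 1 day p.i. and that at 7 days p.i. held 0 members under each alternative run: every deposited barcode, at least 500 genes, at least 3 rule genes, no limit on mesothelial genes or none of them, leukocyte-marked members or cells over 20% mitochondrial left out, thinning to 300 UMIs, each rule gene left out in turn, and the 1000 barcodes with most UMIs, the last chosen after seeing the data. Only every deposited barcode and no limit on mesothelial genes could have added members. The other alternatives narrow the gate, so their 0 followed from the main rule and adds nothing to it. With 0 members in both injured libraries, ratios between libraries within members, and genes past 2-fold between libraries, could not be computed. The share of control cells was 0.720% over every barcode, 2.99% with at least 500 genes, 0.530% with at least 3 rule genes, 0.780% without leukocyte-marked members, 0.511% after thinning, 1.58% without cells over 20% mitochondrial, 0.693% without Postn, 0.780% without Ptn in the rule and 5.00% among the 1000 barcodes. The share of collagens of both classes was 4.40% and became 5.08% with at least 3 rule genes, 4.61% without leukocyte-marked members, 4.27% without the 5% of members with most UMIs and 4.97% without mitochondrial and hepatocyte UMIs. The contractile share of 1.27% became 1.17% with at least 3 rule genes, 1.51% without leukocyte-marked members, 1.34% without cells over 20% mitochondrial, 1.44% without mitochondrial and hepatocyte UMIs and 1.14% with each member weighing the same. The counts of genes past 2-fold stayed within 1.5 times of 2069 higher and 1593 lower, except with at least 20 UMIs in members alone (365 higher and 83 lower of 1418), added after seeing the data, where fewer genes were compared. Over 108 named genes and 756 values under alternatives, 690 stayed within the counting interval of the ratio, 65 moved beyond it and 1 reversed, that of Pi16 at 0.716 with at least 3 rule genes. That reversal rests on a count below the floor of 3 UMIs. Median of ratios shifted every log2 ratio by -0.15. No paired analysis was possible because each condition has 1 library. Depth limits receptors such as Pdgfra and the shares at 0.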
